A study of Mus musculus with 6 samples.

Results

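The cyclin-dependent kinase (CDK) inhibitor genes Cdkn1a, Cdkn1b, Cdkn1c, Cdkn2a, Cdkn2b, Cdkn2c and Cdkn2d, together with Cdkn3, were followed in germinal center-like B cells with and without Prmt1. The 8 genes were taken by their symbols from a table of RNA-seq read counts over 39017 genes, and all 8 passed the filter on low counts, which left 18268 genes for testing. Splenic B cells of C57BL6/J mice were grown for 3.5 days as iGBs, which are B cells activated on 40LB feeder cells (fibroblasts that provide CD40L and BAFF) with IL-4, given as 5 ng/ml in the sample descriptions. The feeder cells were then depleted with an antibody to H2K, and total RNA was sequenced after removal of ribosomal RNA. Control iGBs came from 3 Cg1-cre mice and Prmt1-null iGBs from 3 Cg1-cre Prmt1f/f mice, with 2 females and 1 male in each group and 1 library per mouse. Both groups therefore carried Cg1-cre, in which Cre is expressed with the germline transcript of the Ighg1 locus once a B cell is activated, so that deletion follows activation. The ages of the mice are not given in the sources used here. The question was whether the transcripts that encode brakes on the cell cycle differed when the arginine methyltransferase PRMT1 was removed.

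CDK inhibitors hold the cell cycle by binding to CDKs or to their complexes with cyclins. The CIP/KIP proteins p21 (Cdkn1a), p27 (Cdkn1b) and p57 (Cdkn1c) bind cyclin-CDK complexes broadly, whereas the INK4 proteins bind CDK4 and CDK6 alone and keep them from D-type cyclins, so that the retinoblastoma protein stays unphosphorylated and E2F transcription factors stay silent. Cdkn3 encodes a phosphatase that removes an activating phosphate from CDKs and peaks in dividing cells. In B cells, p27 keeps resting cells out of cycle, p18 (Cdkn2c) is known for its role when cells leave the cycle to become plasma cells, and p21 is a classical target of p53.

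Prmt1 itself was read first, because it checks the labels. Its level was 71.5, 70.8 and 87.2 CPM (counts scaled to a common library size, with library sizes adjusted by edgeR's TMM method) in the 3 Control libraries and 31.5, 26.6 and 26.6 CPM in the 3 Prmt1-null libraries. All Prmt1-null libraries lay below all Control libraries. Prmt1 fell to 36.9% of Control, with a log2 fold change of −1.44 (SE 0.095) and an adjusted p of 1.11e-05 in edgeR's quasi-likelihood test. The gene counts do not separate the floxed exons from the others, so the remaining reads cannot be divided between cells that kept Prmt1 and transcripts of the deleted allele. Total counts ran from 45343250 to 62774232 per library, at which 3 counts correspond to 0.0475 to 0.0657 CPM, a floor that covers counting error only. The B cell markers summed to 15200 to 17100 CPM in Control and 16400 to 17100 CPM in Prmt1-null iGBs. Over all genes tested, 218 (1.19%) had an adjusted p under 0.05 in edgeR's test.

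Of the 8 genes, 0 passed that test, beside the 1.19% of all genes tested, made up of 0.591% that rose without Prmt1 and 0.602% that fell. At an unadjusted p under 0.05, 3 of the 8 were found, with Cdkn1a higher and Cdkn2c and Cdkn3 lower in Prmt1-null iGBs, beside 13.5% of all genes tested (6.5% higher and 7.0% lower). The same 3 were the genes whose Control and Prmt1-null libraries did not overlap, which held for 19.9% of all genes tested, 9.95% with Prmt1-null higher and 9.92% with it lower. The log2 fold change was below 0 for 7 of the 8, with Cdkn1a as the exception, and for 50.1% of all genes tested. These libraries are bulk samples, in which fewer cells of a type and less RNA per cell cannot be told apart.

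**Figure D1:**
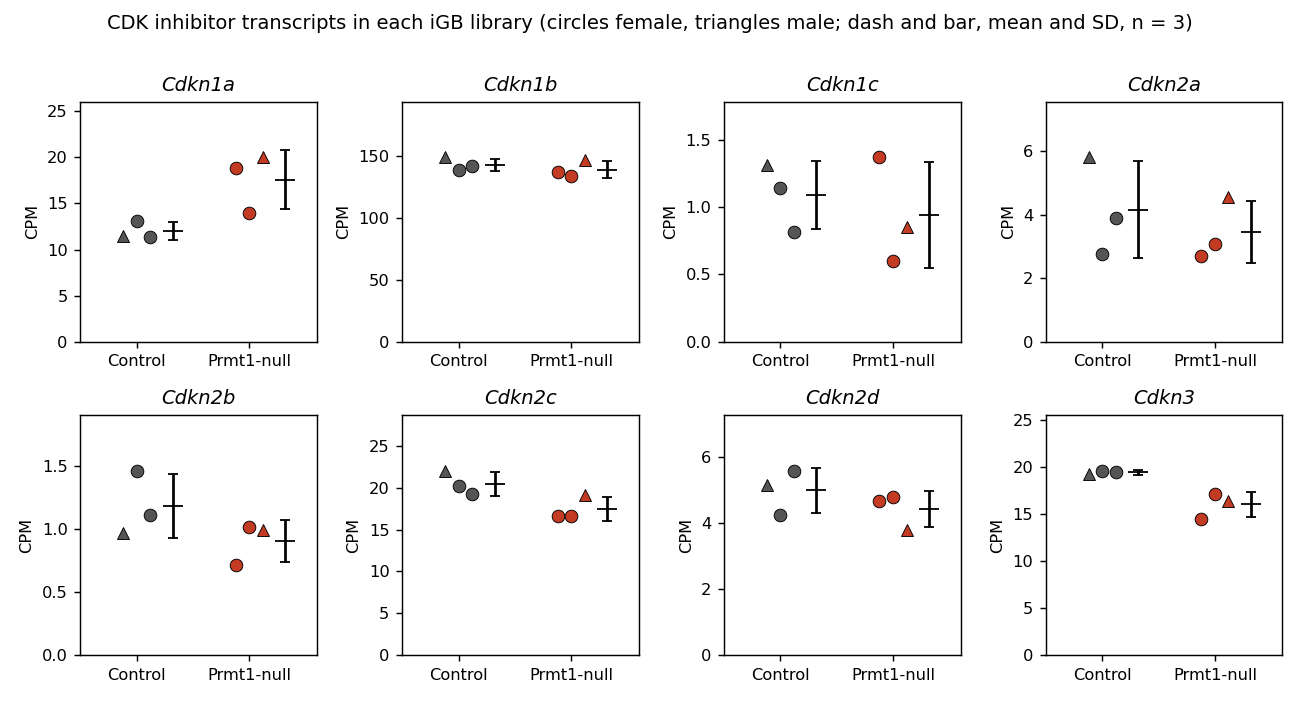
Level of each of the 8 genes in CPM (vertical axis, starting at 0, with its own scale in each panel) in every library, with circles for females, triangles for males, and the dash and bar for the mean and SD of 3 libraries. Cdkn1a was at 11.4 to 13.1 CPM in Control and 14.0 to 20 CPM in Prmt1-null libraries, Cdkn2c and Cdkn3 were lower in every Prmt1-null library, and the groups overlapped for the other genes.

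Cdkn1a, the gene of p21, had 11.5, 13.1 and 11.4 CPM in the Control libraries and 18.8, 14.0 and 20 CPM in the Prmt1-null libraries. The 3 Prmt1-null libraries were higher than the 3 Control libraries, although Prmt1-null replicate 2, from a female, lay close to Control replicate 2, also from a female. The means were 12.0 ± 0.954 CPM in Control and 17.6 ± 3.21 CPM in Prmt1-null iGBs (SD, n = 3), and the spread relative to the mean was 7.97% and 18.2%. The difference was 1.47-fold, with a log2 fold change of 0.56 (SE 0.14, 95% interval 0.26 to 0.85). It did not pass the threshold in edgeR's quasi-likelihood test, with an unadjusted p of 0.00134, an adjusted p of 0.0749 and place 325 of 18268 genes by p. The call depended on the method. Cdkn1a passed in the Wald test of DESeq2, the tool that the study itself used (adjusted p = 0.00689). That test called 5.42% of all genes with an adjusted p. Cdkn1a also passed in edgeR without the filter on low counts (adjusted p = 0.00135), in which 2.76% were called. When each library was left out in turn, the log2 fold change was 0.45 to 0.70 and the adjusted p 0.0586 to 0.286.

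Cdkn1a (ENSMUSG00000023067) lies on the plus strand of mm10 at chr17:29090976-29100727. Its transcripts start at several places, and within the gene on the opposite strand lies AC167363.2 (chr17:29093416-29094461), a locus that the annotation lists as still awaiting experimental evidence. Exons of both overlap, the strand setting of the counting is not given, and reads of both could not be told apart here if strand was not used. Promoter sequence was matched in RefSeq (GRCm38.p6) for 7 of the 8 genes. The 250 bases in front of the start of a Cdkn1a transcript (chr17:29093519-29093768, plus strand) and in front of the start of Cdkn3 (chr14:46760291-46760540, plus strand) are shown because these genes had the smallest p in each direction, and capitals mark the motifs found.
Cdkn1a: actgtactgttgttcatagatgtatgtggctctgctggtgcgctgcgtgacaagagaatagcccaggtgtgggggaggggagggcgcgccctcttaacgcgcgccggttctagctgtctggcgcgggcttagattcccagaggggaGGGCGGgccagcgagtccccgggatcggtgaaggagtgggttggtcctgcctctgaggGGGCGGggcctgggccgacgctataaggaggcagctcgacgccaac
Cdkn3: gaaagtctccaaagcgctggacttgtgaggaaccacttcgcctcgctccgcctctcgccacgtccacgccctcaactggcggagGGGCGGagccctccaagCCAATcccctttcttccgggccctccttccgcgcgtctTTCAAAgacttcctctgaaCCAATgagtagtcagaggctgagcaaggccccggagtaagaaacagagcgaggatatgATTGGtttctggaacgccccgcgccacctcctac
The Cdkn1a window lies in an intron of the transcripts that start further upstream and inside AC167363.2. Each motif was searched on both strands. They were the GC box, spelled GGGCGG, and the CCAAT box, named for its own letters. The TATA box was searched as TATAAA. The CHR element, known from the promoters of cell cycle genes, was searched as TTTGAA. The E-box was searched as the letters CACGTG. The Cdkn1a window held 2 GC boxes, which began 104 and 46 bases before the start, and none of the other motifs. A second Cdkn1a window in the table, before the start furthest upstream (chr17:29090729-29090978), held none of the motifs, and the window to print was chosen after both had been searched. The Cdkn3 window held 1 GC box at 166 bases, 3 CCAAT boxes at 149, 92 and 34 bases and 1 CHR element at 111 bases, and no TATA box or E-box. The CCAAT box at 34 bases and the CHR element lie on the opposite strand, so the capitals show their reverse complement. In windows of 250 bases before the 32851 starts in the table, 32.7% held a GC box, 33.8% a CCAAT box, 12.4% a TATA box, 16.0% a CHR element and 6.02% an E-box. A match describes the letters in these windows and shows no binding.

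Cdkn1b, the gene of p27, was the most abundant of the 8 transcripts and the one with the log2 fold change nearest to 0. It had 149, 139 and 142 CPM in the Control libraries and 137, 134 and 147 CPM in the Prmt1-null libraries, and the groups overlapped. The means were 143 ± 4.72 and 139 ± 6.76 CPM (SD, n = 3). The log2 fold change was −0.04 (SE 0.060) with a 95% interval of −0.17 to 0.085, so that the interval runs from 0.888-fold to 1.06-fold, and the adjusted p was 0.811 in edgeR's test. With 1 library left out the log2 fold change ran from −0.08 (without Prmt1-null replicate 3) to −0.0098 (without Prmt1-null replicate 2), with −0.01 without Control replicate 1. Cdkn1b (ENSMUSG00000003031) lies on the plus strand at chr6:134920401-134925513.

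Cdkn1c, the imprinted gene of p57, had the lowest level of the 8 per kilobase of exon. It had 1.31, 1.14 and 0.815 CPM in Control and 1.37, 0.598 and 0.852 CPM in Prmt1-null libraries, which were 36 to 75 counts per library. The groups overlapped fully, and the highest and the lowest library were both Prmt1-null. The log2 fold change of −0.21 (SE 0.40) had a 95% interval of −1.1 to 0.64 and an adjusted p of 0.863 in edgeR's test, and its sign turned in females alone (0.0039) and without Prmt1-null replicate 2 (0.03). The spread between libraries was 23.3% of the mean in Control and 41.8% in Prmt1-null iGBs. Cdkn1c (ENSMUSG00000037664) lies on the minus strand at chr7:143458339-143461050 and shares exon positions with the antisense gene Gm44732 (chr7:143459749-143460640), so its low counts are uncertain unless strand was used.

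**Figure D2:**
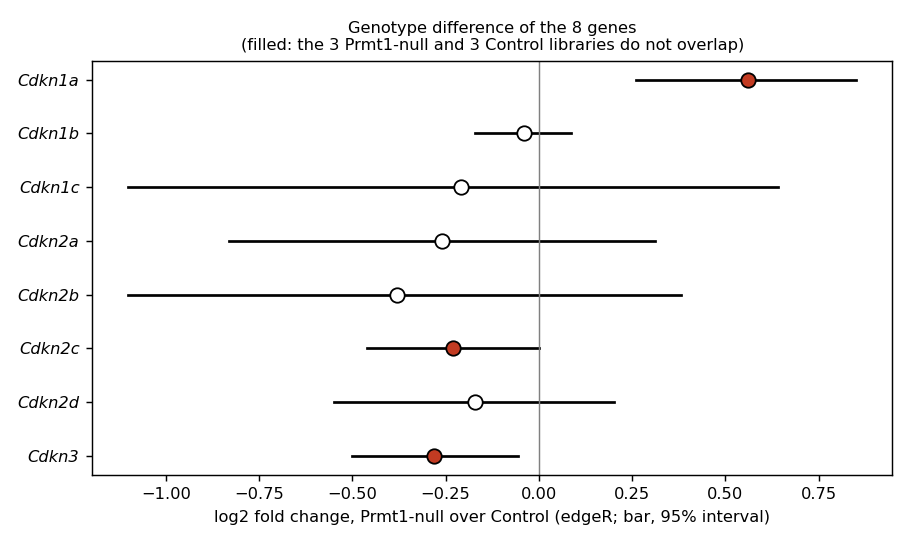
Log2 fold change of the 8 genes, Prmt1-null over Control (horizontal axis), with 95% intervals from edgeR as bars and filled points where the 3 libraries of each group did not overlap. The intervals of Cdkn1a (0.26 to 0.85) and Cdkn3 (−0.50 to −0.055) do not reach 0, that of Cdkn2c ends at −0.00016, and those of Cdkn1c, Cdkn2a and Cdkn2b span more than 1 log2 unit.

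Of the INK4 genes, Cdkn2c was the most abundant. Cdkn2c, the gene of p18, had 22.1, 20.2 and 19.3 CPM in the Control libraries and 16.6, 16.7 and 19.2 CPM in the Prmt1-null libraries. The groups did not overlap, but the highest Prmt1-null library, from a male, lay just below the lowest Control library, from a female. The means were 20.5 ± 1.44 and 17.5 ± 1.48 CPM (SD, n = 3), which is 85.2% of Control. The log2 fold change was −0.23 (SE 0.11, 95% interval −0.46 to −0.00016), with an unadjusted p of 0.0499 and an adjusted p of 0.37 in edgeR's test, so it did not pass. In edgeR's other fits to all libraries the unadjusted p ran from 0.0237 (sex as a covariate) to 0.0847 (replicate number as a block). Its place among the genes with an unadjusted p under 0.05 therefore depended on the fit. Cdkn2c (ENSMUSG00000028551) lies on the minus strand at chr4:109660876-109667189.

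Cdkn2d, which encodes the INK4 protein p19, had 5.13, 4.24 and 5.58 CPM in Control and 4.67, 4.79 and 3.78 CPM in Prmt1-null libraries. The groups overlapped. The means were 4.98 ± 0.681 and 4.42 ± 0.549 CPM (SD, n = 3), and the log2 fold change of −0.17 (SE 0.17, 95% interval −0.55 to 0.20) had an adjusted p of 0.735 in edgeR's test. It was −0.05 in females alone, and with 1 library left out it ran from −0.28 (without Control replicate 2) to −0.07 (without Prmt1-null replicate 3), with −0.08 without Control replicate 3. Cdkn2d (ENSMUSG00000096472) lies on the minus strand at chr9:21288410-21291407.

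Cdkn2a and Cdkn2b are neighbors on the minus strand of chromosome 4, a locus that Polycomb proteins are known to keep silent in young, dividing cells. Cdkn2a encodes both p16, an INK4 protein, and Arf, which stabilizes p53 by holding its ubiquitin ligase MDM2. The p16 and Arf transcripts share exons, so the gene's counts cannot be divided between them. Cdkn2a (ENSMUSG00000044303, chr4:89274471-89294653) had 5.81, 2.77 and 3.89 CPM in Control and 2.70, 3.09 and 4.57 CPM in Prmt1-null libraries, with overlap and a spread of 36.9% and 28.5% of the means. Its log2 fold change was −0.26 (SE 0.27, 95% interval −0.83 to 0.31, adjusted p = 0.742 in edgeR's test) and turned to 0.06 without Control replicate 1, a male.

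The high libraries of Cdkn2a were the males. The 2 male libraries had 4.57 and 5.81 CPM and the 4 female libraries 2.70 to 3.89 CPM, without overlap, which held for 13.3% of all genes tested. In a model with genotype and sex, added after the data had been seen, the log2 difference of males over females was 0.73 (SE 0.20) with an unadjusted p of 0.00305 and an adjusted p of 0.648 in edgeR's test, beside 0.0712% of genes past the adjusted and 6.92% past the unadjusted threshold. Cdkn1b was the other gene of the 8 without overlap between the sexes, at 147 to 149 CPM in males and 134 to 142 CPM in females, with a log2 difference of 0.10 (SE 0.059) and an adjusted p of 0.772 in the same model. Neither passed.

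Cdkn2b, the gene of p15 and a known target of TGF-β signaling, had 0.964, 1.46 and 1.11 CPM in Control and 0.712, 1.01 and 0.989 CPM in Prmt1-null libraries. These were 39 to 92 counts per library, and the groups overlapped. The log2 fold change was −0.38 (SE 0.35, 95% interval −1.1 to 0.38, adjusted p = 0.701 in edgeR's test), the furthest below 0 of the 8. It was −0.57 in females alone, −0.20 without Control replicate 2 and −0.23 without Prmt1-null replicate 1. Cdkn2b (ENSMUSG00000073802) lies at chr4:89306299-89311039.

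Cdkn3, the phosphatase gene, had 19.2, 19.6 and 19.4 CPM in the Control libraries and 14.5, 17.1 and 16.4 CPM in the Prmt1-null libraries. All Control libraries were higher than all Prmt1-null libraries, and they were almost equal to each other, with a spread of 1.23% of the mean against 8.23% in Prmt1-null iGBs. The means were 19.4 ± 0.239 and 16.0 ± 1.32 CPM (SD, n = 3), or 82.4% of Control. The log2 fold change was −0.28 (SE 0.10, 95% interval −0.50 to −0.055), with an unadjusted p of 0.0182 and an adjusted p of 0.237 in edgeR's test, so it did not pass. Cdkn3 (ENSMUSG00000037628) lies at chr14:46760541-46771669, directly behind the window printed above.

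The direction of the differences was also read within each sex. Cdkn1a differed by 0.41 on the log2 scale of CPM between the female means, with pairs of a Prmt1-null and a Control female from 0.10 to 0.73, and by 0.81 between the 2 males. Cdkn3 differed by −0.31 in females and −0.23 in males, and Cdkn2c by −0.25 and −0.20. With 1 male in each group the male differences have no spread of their own, so a test cannot decide whether the sexes differed.

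Levels of different genes were compared per kilobase of exon, to take out the length of the transcripts. Cdkn1b stood far above the others, at 31.5 ± 1.03 CPM per kilobase in Control and 30.6 ± 1.46 in Prmt1-null iGBs (SD, n = 3). Cdkn3 (8.19 ± 0.10 and 6.75 ± 0.556) and Cdkn2c (7.64 ± 0.533 and 6.51 ± 0.552) followed, with overlapping libraries. Next came Cdkn1a (3.37 ± 0.269 and 4.95 ± 0.903), Cdkn2a (3.54 ± 1.31 and 2.95 ± 0.839) and Cdkn2d (3.17 ± 0.432 and 2.80 ± 0.351). Cdkn1a and Cdkn2a overlapped in Control but not in Prmt1-null iGBs, and Cdkn2a and Cdkn2d overlapped in both. Cdkn2b (0.848 ± 0.183 and 0.651 ± 0.121) and Cdkn1c (0.535 ± 0.124 and 0.461 ± 0.193) were the lowest, and their libraries overlapped in Prmt1-null iGBs. Dividing by the longest transcript instead kept the order of the means over the 6 libraries together, but not that within each group. In Control the mean of Cdkn1a (5.75 ± 0.46 CPM per kilobase) was then above that of Cdkn2a (4.65 ± 1.71), with overlapping libraries. In Prmt1-null iGBs Cdkn1a, at 8.46 ± 1.54 CPM per kilobase, had a higher mean than Cdkn3 (8.19 ± 0.67) and Cdkn2c (7.08 ± 0.598), with overlapping libraries.

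**Figure D3:**
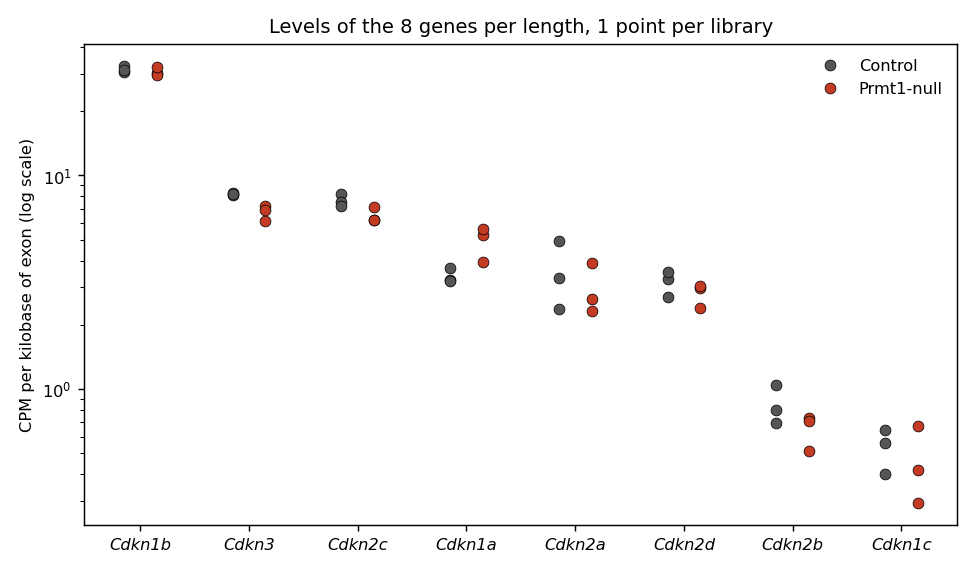
Level of each of the 8 genes in CPM per kilobase of exon (vertical axis, log scale), with 1 point per library for Control and Prmt1-null iGBs. Cdkn1b lies at 29.4 to 32.6, and the lowest genes, Cdkn2b and Cdkn1c, lie at 0.512 to 1.05 and 0.293 to 0.672.

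As a share of the summed level of the 8 genes per kilobase, Cdkn1b made up 52.8% to 53.9% in Control and 54.3% to 55.6% in Prmt1-null libraries. The share of Cdkn1a was 5.24% to 6.48% and 7.35% to 9.77%. The 4 INK4 genes together took 24.0% to 27.8% in Control and 22.1% to 23.9% in Prmt1-null libraries. The share of Cdkn2c was 12.4% to 13.3% and 11.4% to 12.1%. The groups did not overlap in these 4 shares, as was so for the CPM of 19.9% of all single genes tested. They overlapped in the shares of Cdkn3 (13.1% to 14.6% and 11.3% to 13.5%), Cdkn2a, Cdkn2b, Cdkn2d and Cdkn1c. Cdkn1b exceeded Cdkn1a 8.32-fold to 10.1-fold per kilobase of exon in Control and 5.69-fold to 7.48-fold in Prmt1-null libraries. With the longest transcript as the length, chosen after the data had been seen, the ratio was 4.87 to 5.92 and 3.33 to 4.38. Its size thus depends on the length. A change of length scales every library alike, so whether the groups overlap cannot change with it. The ratio also holds the same Cdkn1a values as above, so its lack of overlap is no separate result. The summed level itself overlapped, at 56.8 to 61.7 and 53.5 to 59.3 CPM per kilobase, as did the sum of the 3 CIP/KIP genes (34.8 to 36.5 and 33.6 to 38.3) and that of the INK4 genes (13.6 to 17.1 and 12.0 to 14.2). Shares of 1 sum are not independent of each other, and they are given without a test.

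The genes most like Cdkn1a across the 6 libraries by Pearson's r of log2 CPM were Knop1 (0.996), Hgsnat (0.995) and Gm26732 (0.993), and 139 genes reached 0.9. For Cdkn2c they were Bard1 (0.994), Mitf (0.993) and Gm5943 (0.993), and 341 genes reached 0.9. For Cdkn3 they were Msh3 (0.993), Rinl (0.992) and Grhpr (0.990), and 255 genes reached 0.9. The other 5 genes had 100 to 154 such genes each. For Cdkn1b the closest were 5730455P16Rik (0.995), Gm26870 (0.990) and Cmtm8 (0.978), and for Cdkn1c Gm5263 (0.989), Frat2 (0.989) and Odf2 (0.985). For Cdkn2a they were Gm21738 (0.999), Zfp612 (0.985) and 6330562C20Rik (0.985), for Cdkn2b Dnajb14 (0.996), Nsun6 (0.993) and mmu-mir-6999 (0.987), and for Cdkn2d Dopey2 (0.988), 4930523C07Rik (0.988) and Dennd5b (0.985). Among the 8 genes, the values furthest from 0 were 0.88 for Cdkn1b and Cdkn2a and −0.87 for Cdkn1a and Cdkn3. With 6 points that share 2 genotypes and 2 sexes, these values are descriptions, and many genes of 18268 reach them.

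Genes that act with the inhibitors were read from lists, of which 7 were set out by role. Among the 17 tested cyclins, CDKs and CDC25 phosphatases, 1 gene fell and 0 rose (5.88%, beside 1.19% of all genes tested), with a median log2 fold change of −0.075, beside −0.001 over all genes tested. At an unadjusted p under 0.05, 1 was higher and 5 lower (35.3%, beside 13.5% of all genes tested). The gene that fell was Ccne2, which encodes a cyclin E that activates CDK2, the kinase held by p21 and p27. Ccne2 had 69.3, 65.0 and 55.0 CPM in Control and 43.0, 49.6 and 48.0 CPM in Prmt1-null libraries, without overlap, and a log2 fold change of −0.43 (SE 0.088, adjusted p = 0.0332 in edgeR's test). That call was lost in females alone (adjusted p = 0.147) and without any 1 library other than Control replicate 3, with an adjusted p of up to 0.184. The kinases that INK4 proteins bind were chosen after their values had been seen. Cdk4 had 257 ± 3.11 CPM in Control and 287 ± 15.9 CPM in Prmt1-null iGBs (log2 fold change 0.16, adjusted p = 0.246), and Cdk6 had 49.1 ± 3.79 and 53.2 ± 1.97 CPM (0.12, adjusted p = 0.537, SD, n = 3, edgeR's test).

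Downstream of the CDKs, the 13 retinoblastoma family, E2F and DP genes had a median log2 fold change of −0.12, and all 13 were below 0 (−0.43 to −0.00015), as were 50.1% of all genes tested. Among them 1 passed the test as lower (7.69%, beside 1.19% of all genes tested), and 4 were lower and 0 higher at an unadjusted p under 0.05 (30.8%, beside 13.5%). The gene that passed was E2f2, an E2F that drives entry into S phase. E2f2 had 157, 150 and 171 CPM in Control and 123, 114 and 118 CPM in Prmt1-null libraries, with a log2 fold change of −0.43 (SE 0.064, adjusted p = 0.0061 in edgeR's test). The groups were clearly apart. Without Prmt1-null replicate 2 its adjusted p was 0.0682, and it passed in the 5 other fits that left out 1 library.

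Of 16 genes that degrade the inhibitors, such as SCF and CRL4 ubiquitin ligase subunits, 0 passed, beside 1.19% of all genes tested. At an unadjusted p under 0.05 by edgeR, 0 were higher and 2 lower (12.5%, beside 13.5% of all genes tested). DESeq2 called 1, beside 5.42% of all genes to which it gave an adjusted p. The one with the smallest p was Dtl, the receptor through which CRL4 recognizes p21 on PCNA, at 81.2 ± 2.84 CPM in Control and 67.2 ± 6.01 CPM in Prmt1-null iGBs (SD, n = 3, log2 fold change −0.27, adjusted p = 0.0849 in edgeR's test). Of 27 transcription regulators of CIP/KIP genes, 0 passed, beside 1.19% of all genes tested. There were 1 higher and 4 lower at an unadjusted p under 0.05 by edgeR (18.5%, beside 13.5% of all genes tested). DESeq2 called 2 of them, beside 5.42% of the genes to which it gave an adjusted p. Brca1 had the smallest p, at 52.7 ± 2.99 and 43.1 ± 1.01 CPM (SD, n = 3, log2 fold change −0.29, adjusted p = 0.0633 in edgeR's test). Of 26 Polycomb and other regulators of the INK4 locus, 0 passed, beside the same 1.19%. There were 2 higher and 2 lower at an unadjusted p under 0.05 by edgeR (15.4%, beside 13.5%), and DESeq2 called 2, beside the same 5.42%. The smallest p belonged to Cbx2, a chromobox subunit of Polycomb repressive complex 1, at 25.0 ± 1.10 and 19.8 ± 0.708 CPM (SD, n = 3, log2 fold change −0.34, adjusted p = 0.109 in edgeR's test).

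Because p53 acts on Cdkn1a, its other targets were read beside it. Of the 28 tested, 2 rose and 0 fell, with a median log2 fold change of 0.093, beside −0.001 over all genes tested and 0.591% of all genes higher. At an unadjusted p under 0.05, 6 were higher and 3 lower (32.1%), beside 6.5% and 7.0% of all genes tested (13.5% in all). Phlda3, which encodes a repressor of AKT signaling, had 5.37, 6.11 and 4.87 CPM in Control and 8.76, 8.49 and 9.97 CPM in Prmt1-null libraries, with a log2 fold change of 0.73 (SE 0.14, adjusted p = 0.0275 in edgeR's test). Ddit4, an inhibitor of mTORC1 that other stress pathways also induce, had 42.4, 43.8 and 44.6 CPM and 53.3, 55.8 and 55.5 CPM, with a log2 fold change of 0.33 (SE 0.066, adjusted p = 0.0296 in edgeR's test). Neither gene overlapped between the groups. Both calls were lost in females alone (adjusted p = 0.145 for Phlda3 and 0.14 for Ddit4). Phlda3 did not pass in any of the 6 fits without 1 library (adjusted p 0.05 to 0.13), and Ddit4 passed in the one without Control replicate 3. The p53 gene itself, Trp53, chosen after its values had been seen, had 156 ± 7.35 and 149 ± 8.13 CPM (SD, n = 3), with a log2 fold change of −0.07 (adjusted p = 0.712 in edgeR's test).

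**Figure D4:**
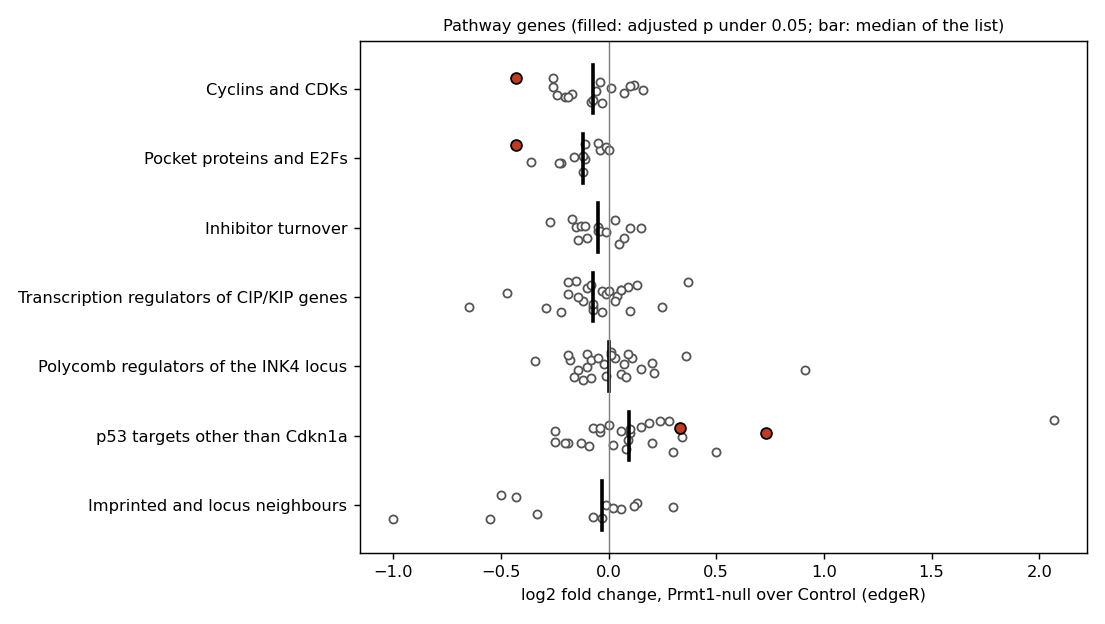
Log2 fold change, Prmt1-null over Control (horizontal axis), of the tested genes of 7 lists, with 1 point per gene, filled points for an adjusted p under 0.05 in edgeR and a bar at the median of each list. The filled points are Ccne2 and E2f2 at −0.43 and Ddit4 and Phlda3 at 0.33 and 0.73, and the medians lie between −0.12 and 0.093.

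Of the 13 tested genes that neighbor the inhibitors or share an imprinted domain with Cdkn1c, 0 passed, beside 1.19% of all genes tested. There were 1 higher and 3 lower at an unadjusted p under 0.05 by edgeR (30.8%, beside 13.5% of all genes tested). DESeq2 called 2 of them, beside 5.42% of the genes to which it gave an adjusted p. Gpr19, a receptor gene next to Cdkn1b, had the smallest p. It had 3.40, 2.25 and 3.54 CPM in Control and 1.33, 1.45 and 1.81 CPM in Prmt1-null libraries, with a log2 fold change of −1.0 (SE 0.25, adjusted p = 0.0795 in edgeR's test). The groups of Gpr19 did not overlap, unlike those of Cdkn1b.

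Markers of other cells and states were read in the same libraries. Of 22 fibroblast markers, which stand for the feeder cells, 18 had counts in all libraries and Lum and Postn were at 0 in all. Of the 18 tested, 0 passed in either direction in edgeR's test, beside 1.19% of all genes tested. They summed to 34.5 to 39.5 CPM in Control and 39.7 to 45.8 CPM in Prmt1-null libraries, without overlap (two-sided exact permutation test, p = 0.1, the smallest that 20 arrangements of 3 against 3 can give), beside 19.9% of all single genes tested without overlap. Cd40lg and Tnfsf13b, the genes of the proteins that the feeder cells provide, summed to 0.701 to 1.35 CPM in Control and 0.603 to 0.981 CPM in Prmt1-null libraries, with overlap and with the lower values in Prmt1-null iGBs (exact permutation test, p = 0.2). The plasma cell markers, of which 9 of 10 were in the table, summed to 1220 to 1290 and 1400 to 1500 CPM, also without overlap (exact permutation test, p = 0.1). Of the 8 tested, 1 passed as higher and 0 as lower in edgeR's test, beside 0.591% and 0.602% of all genes tested. The gene that passed was Derl3, named after its value had been seen. Summed T cell markers were at 29.1 to 33.3 and 32.1 to 36.3 CPM, and myeloid markers at 3.51 to 12.0 and 4.64 to 6.62 CPM. Cdkn1a, Cdkn2c and Cdkn3 differed along the same split of the libraries as the fibroblast and plasma cell sums. So did Ccne2, E2f2, Phlda3 and Ddit4 from the lists. The part of fibroblast and plasma cell RNA in the differences of these genes was not tested.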

How the data were processed

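RNA-seq of iGBs from 3 Control and 3 Prmt1-null mice was analysed from raw counts per gene. The authors deposited these counts without normalization. Per the submitters' processing notes and the study's methods, reads were trimmed with Trimmomatic 0.32, aligned to mm10 with STAR 2.3.0e and counted on exons with featureCounts 1.4.4. The kit was stranded, and the strand setting of the counting is not given in the sources used here. The methods give a lower IL-4 dose than the labels. Of 39017 genes, 37693 were matched to GENCODE M21 by ID and 803 by symbol, and 521 were not matched.

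Genotypes were compared on the counts using edgeR 4.0.16 under R 4.3.3 (TMM, filterByExpr with a minimum count of 10, quasi-likelihood test, Benjamini-Hochberg adjustment over 18268 genes, threshold 0.05), leaving out 398 chromosome Y genes as in the study's methods. The common biological coefficient of variation was 0.154. Standard errors came from the log2 fold change and the F statistic. CPM use TMM-scaled library sizes, and log2 CPM for correlations a prior count of 2. The procedure was tested on simulated data. Alternatives were DESeq2 1.42.0, limma-voom (limma 3.58.1), other size factors, no filter, chromosome Y kept, the replicate number as a block, sex as a covariate, females alone and each library left out. The p-values measure the spread between the mice sampled.

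Named are the 8 genes, Prmt1, in each list the genes past the test or else the one with the smallest p, and the 3 genes most like each of the 8. Cdk4, Cdk6, Trp53 and Derl3 were added after their values had been seen. The genes and lists were chosen with earlier results of these data known.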

Additional observations from a re-analysis of the deposited data

Results flagged for a closer look

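For Cdkn2b, the 2 Prmt1-null females lay below the 2 Control females, with log2 differences of −1.03 to −0.13 between them. These pairs share libraries, so they are not separate observations. The single male pair was at 0.04 (0.964 CPM in Control and 0.989 CPM in Prmt1-null, from 44 and 58 counts). The interaction of genotype and sex in edgeR, males minus females, was 0.61 on the log2 scale. With 1 male per genotype the male difference has no spread of its own, so a test cannot show an opposite direction. Cdkn2b had 39 to 92 counts per library, and each genotype had 1 male.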

How the results depend on the processing

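The count of all genes past the test, 218, was 709 with DESeq2, 710 without the filter on low counts, 113 in females alone and 31 (without Prmt1-null replicate 2) to 350 (without Control replicate 3) when 1 library was left out, with 128, 60, 51 and 77 without Control replicates 1 and 2 and Prmt1-null replicates 1 and 3. The count among the 8 genes, 0, was 1 with DESeq2 and 1 without the filter. This was Cdkn1a, at 0.56 in both, and the cause was not tested. Cdkn1c turned to 0.0039 in females alone, and with 1 library left out it ran from −0.58 to 0.03 (without Prmt1-null replicate 2). Cdkn2a ran from −0.51 to 0.06 (without Control replicate 1). DESeq2 gave Cdkn1c and Cdkn2b no adjusted p. Other alternatives changed no direction of the 8 genes and no call at an adjusted p under 0.05. In the lists, DESeq2 called 2 cyclin and CDK genes, 3 pocket protein and E2F genes, 1 turnover gene and 2 regulators of CIP/KIP genes. It also called 2 Polycomb regulators, 4 p53 targets and 2 neighbors. These counts stand beside 5.42% of the genes to which it gave an adjusted p. Without the filter 2, 3, 1, 3, 0, 3 and 1 were called in the same order, beside 2.76% of all genes in that fit. The lists held 17, 13, 16, 27, 26, 28 and 13 genes tested in the main fit. In females alone 0 cyclin and CDK genes and 0 p53 targets were called. With 1 library left out, 0 to 1 cyclin and CDK genes, 0 to 3 pocket protein and E2F genes, 0 to 2 regulators of CIP/KIP genes and 0 to 1 p53 targets were called. Same-numbered libraries came from different mice, and their deviations correlated at −0.0747, 0.0445 and −0.0775, so the numbers were not taken as pairs. With the replicate number as a block, 152 genes passed, Cdkn1a had 0.54 (adjusted p = 0.126), 1 p53 target was called, since Ddit4 no longer passed, and no other call of the 8 genes, Prmt1 or the genes named from the 7 lists changed. Cdkn1c and Cdkn2b had 36 to 92 counts per library, and their intervals were the widest of the 8.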
